A study of Arabidopsis thaliana with 4 samples.

Results

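The class III peroxidase clade described here holds 7 Arabidopsis thaliana genes, PRX22 (AT2G38380), PRX23 (AT2G38390), PRX32 (AT3G32980), PRX33 (AT3G49110), PRX34 (AT3G49120), PRX37 (AT4G08770) and PRX38 (AT4G08780). They were chosen by their gene identifiers, with flower and seedling counts and FPKM values (fragments counted per length of transcript and per depth of library) already in view, so their levels are given as a description. Of the 7 genes, 6 were listed with flower values in both tables that compare flower with seedling, one per genotype, and those tables shared 8961 genes. PRX33 was in none of the 3 gene tables and was not analysed here. None of the 7 was among the 414 genes that the authors' threshold left in the table comparing the genotypes. Those 414 are a small share of all the genes that the authors tested, so the absence of 7 genes says little about the clade.

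The samples were inflorescences of 5-week-old plants of 2 genotypes, grown side by side on soil under long days. Col-0 was the wild type, and ndx1-4 was a single T-DNA insertion line (WiscDsLox344A04) of NODULIN HOMEOBOX (NDX), a plant-specific nuclear regulator of transcription. Each genotype had 2 mRNA libraries, called replicates 1 and 2, and each library came from a pool of RNA from several plants. The seedling columns of the tables were not used here. Listed counts summed to between 8934973 and 11624576 per library. NDX (AT4G03090) was counted 430 and 525 times in the Col-0 libraries against 73 and 108 times in ndx1-4. The flower label was met by the counts of all 5 floral organ identity genes examined (AP1, AP3, PI, AG and SEP3). These counts ran from 667 for AG in ndx1-4 replicate 1 to 2654 for SEP3 in ndx1-4 replicate 2. In such bulk samples, fewer cells of a type and less RNA per cell cannot be told apart.

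Class III peroxidases are secreted, haem-containing enzymes of plants. They use hydrogen peroxide to oxidize phenolic substrates, which cross-links lignin, suberin and cell wall proteins, and they can also generate reactive oxygen species in the cell wall space. The clade includes the Arabidopsis enzymes most like horseradish peroxidase C, the standard reagent of immunoassays. PRX33 and PRX34 are known for the oxidative burst that follows recognition of microbial molecules in Arabidopsis.

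The catalytic pocket shows how alike the copies are at a place that the enzyme needs. The stretches printed next are coding DNA, 39 bases each, 5′ to 3′ on the coding strand, taken from the RefSeq annotation of TAIR10.1. Capitals mark 3 consecutive codons, for the distal histidine that takes part in the reaction with hydrogen peroxide and for the aspartate and cysteine that follow it. In all 7 genes the stretch is split in the genome by an intron.
PRX22: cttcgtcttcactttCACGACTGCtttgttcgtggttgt
PRX23: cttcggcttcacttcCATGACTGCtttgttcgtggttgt
PRX32: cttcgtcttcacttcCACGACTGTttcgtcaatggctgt
PRX33: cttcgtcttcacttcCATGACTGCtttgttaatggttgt
PRX34: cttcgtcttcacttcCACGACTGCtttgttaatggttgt
PRX37: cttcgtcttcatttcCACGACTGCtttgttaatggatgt
PRX38: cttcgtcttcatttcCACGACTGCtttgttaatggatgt

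PRX37 and PRX38 had the same letters throughout this stretch. PRX33 and PRX34 differed at 1 base, PRX22 and PRX23 at 3 bases, and PRX32 and PRX34 at 4 bases. The histidine was codon 71 in PRX22, PRX23 and PRX32, codon 73 in PRX33, codon 72 in PRX34 and codon 64 in PRX37 and PRX38.

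The genes lie at 4 places on 3 chromosomes. Coordinates are those of TAIR10.1, in which all 13220 nuclear genes of the tables had the positions that the tables gave. PRX22 (chr2:16076289-16078781) and PRX23 (chr2:16079679-16081671) stand head to tail on the forward strand with 897 bp between them. PRX33 (chr3:18200587-18203265) and PRX34 (chr3:18207651-18210333) are also both on the forward strand, 4385 bp apart, with the short annotated gene AT3G49115 between them. PRX37 (chr4:5598037-5600398, reverse strand) and PRX38 (chr4:5604105-5608290, forward strand) point away from each other across 3706 bp. PRX32 (chr3:13526071-13530098, reverse strand) has no partner beside it, and the 3 nearest annotated genes on either side are pseudogenes.

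All 7 genes have 4 exons, and they differ mainly in their introns. Intron 1 is the longest in PRX32 (1914 bp), PRX33 (560 bp), PRX34 (753 bp), PRX37 (754 bp) and PRX38 (2850 bp). In PRX22 and PRX23 the longest is intron 3, with 600 bp and 365 bp. The coding sequences are close in length, from 1041 bases in PRX37 and PRX38 to 1065 bases in PRX33.

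**Figure D1:**
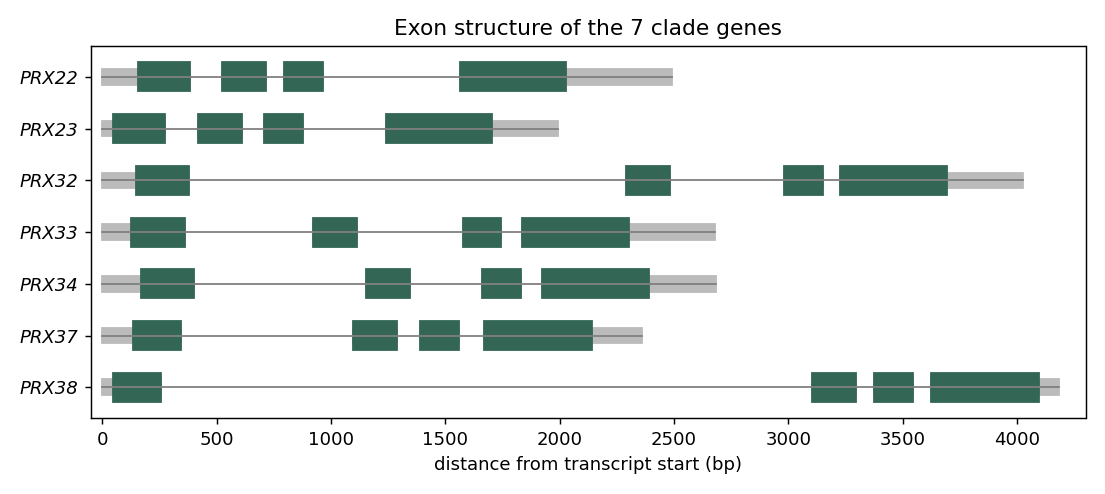
Exon structure of the 7 genes, drawn from the transcript start (x axis, base pairs). Green boxes are coding exons, grey boxes are untranslated parts and lines are introns. Intron 1 takes 2850 bp in PRX38 and 1914 bp in PRX32, while PRX22 and PRX23 have their longest intron before the last exon.

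Within each tandem pair the copies were closer to each other than to any other member. Coding identity was 93.8% for PRX37 and PRX38, 90.7% for PRX33 and PRX34 and 90.6% for PRX22 and PRX23. PRX32 was nearest to PRX34, at 84.4%, although the 2 genes lie far apart on chromosome 3. The most distant pair was PRX23 and PRX38, at 65.6%.

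**Figure D2:**
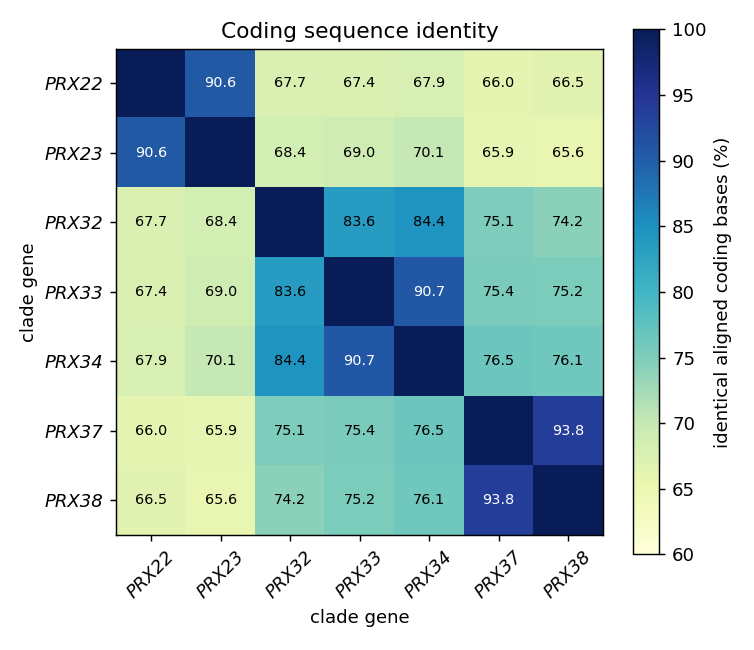
Percentage of identical bases in pairwise alignments of the coding sequences (both axes list the genes, colour from 60% to 100%). The 3 tandem pairs are at 90.6% to 93.8%, and PRX32 joins PRX33 and PRX34 at 83.6% and 84.4%.

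Copies this alike can share sequencing reads. The libraries were read as single ends of 75 bases, and Salmon divides a read that fits several transcripts between them. The longest runs of bases that tandem partners have in common, all inside the coding sequence, are printed here to show what a read would have to cross, with no capitals because every base is shared.
PRX22 and PRX23: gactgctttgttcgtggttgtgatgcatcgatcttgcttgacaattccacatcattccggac
PRX33 and PRX34: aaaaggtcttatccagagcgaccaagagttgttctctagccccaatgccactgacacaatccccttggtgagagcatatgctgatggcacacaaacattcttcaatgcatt
PRX37 and PRX38: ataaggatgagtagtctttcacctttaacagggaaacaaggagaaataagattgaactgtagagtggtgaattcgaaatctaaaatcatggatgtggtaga

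The run of PRX22 and PRX23 has 62 bases, shorter than a read, so each read of 75 bases from either gene carries at least 1 base that separates them. The runs of the other pairs, 111 bases in PRX33 and PRX34 and 101 bases in PRX37 and PRX38, are longer than a read. When every window of 75 bases in each transcript was compared with all annotated transcripts, PRX22, PRX23 and PRX32 had none in common with another gene. PRX33 and PRX34 shared 49 windows, which left 96.6% of the PRX34 windows particular to PRX34, and PRX37 shared 42 windows with PRX38, which left it 96.8%. PRX38 had the lowest share, 89.9%, because 69 of its windows also occur in AT4G08790, a gene on the opposite strand that overlaps its end by 143 bp. The TruSeq v2 kit does not mark strand, so reads from that overlap cannot be told apart.

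**Figure D3:**
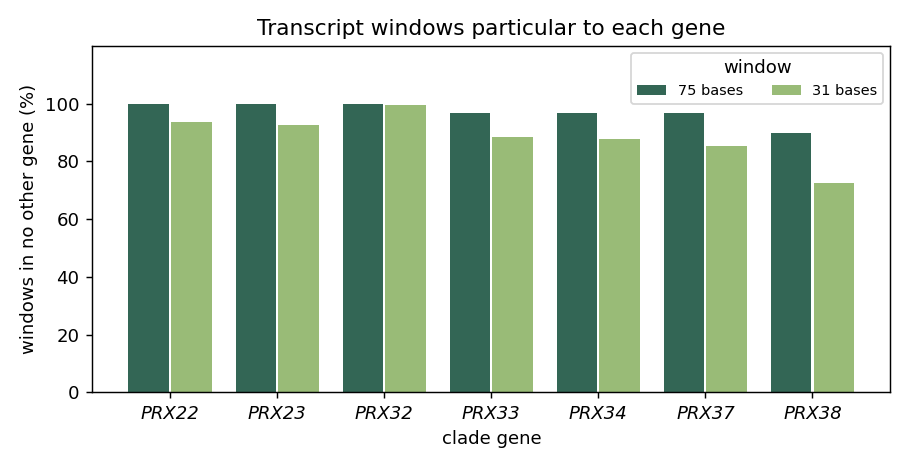
Percentage of transcript windows that occur in no other annotated gene (y axis), for windows of 75 bases, the read length, and of 31 bases (bar colours). At 75 bases the bars run from 89.9% in PRX38 to 100% in PRX22, PRX23 and PRX32, and at 31 bases PRX38 is again lowest, at 72.4%.

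PRX34 had by far the highest level of the 6 listed members. Its FPKM, a level per transcript length that was scaled within each table, was 48.7 and 57.3 in the Col-0 libraries against 57.3 and 49.5 in the ndx1-4 libraries. Among the 59 class III peroxidases of the Col-0 table its mean stood below those of PRX42 and PRX12. Among the 56 of the ndx1-4 table, which does not list PRX12, its mean stood below those of PRX42 and PRX65. In Col-0 it did not differ from PRX65 beyond their spread, with means of 53.0 ± 6.14 (SD, n = 2) and 48.6 ± 15.1, and PRX65 was the higher of them in replicate 1. Of the FPKM summed over the 6 listed members, which leaves out PRX33, PRX34 held 93.8% in Col-0 and 90.6% in ndx1-4.

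The other members were far lower. PRX32 followed with an FPKM of 2.42 and 1.94 in the Col-0 libraries against 5.55 and 3.25 in those of ndx1-4. That placed it at rank 25 of 59 peroxidases in the Col-0 table and at rank 15 of 56 in the ndx1-4 table. These ranks are over different genes. PRX12 and PRX71, for example, stood above PRX32 in Col-0 but were not listed in the ndx1-4 table. In Col-0 came next PRX22 at 0.509 ± 0.0948 (SD, n = 2), PRX37 at 0.436 ± 0.155 and PRX38 at 0.40 ± 0.221, and these 3 levels lay within each other's spread. In ndx1-4 PRX22 stood at 0.921 ± 0.447, above PRX37 at 0.0821 ± 0.116, PRX38 at 0.0729 ± 0.0259 and PRX23 at 0.0387 ± 0.0547. The last 3 did not differ beyond their spread. PRX23 was listed at 0 in both Col-0 libraries.

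The genotypes were compared on the estimated counts by the quasi-likelihood test of edgeR, in a fit of the 7981 genes of both tissue tables whose counts averaged 10 or more per library. With 2 pools per genotype, the p-values measure the spread between those pools. The test also draws each gene's spread towards that of the other genes in the fit. A gene was called at a Benjamini-Hochberg adjusted p below 0.01, which 7 genes or 0.0877% of the tested genes reached. No member was among them, of the 3 that passed the count minimum (PRX22, PRX32 and PRX34), and DESeq2 called 0 of them, giving no adjusted p for PRX22, where it called 199 genes or 2.49% of those in the fit. At an unadjusted p below 0.05 in edgeR stood 1 of the 3, PRX32, where 19.3% of all tested genes did.

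PRX34 did not differ between the genotypes beyond its spread. It was counted 1085 and 1543 times in the Col-0 libraries against 1426 and 1469 times in ndx1-4. Scaled for depth, these were 1085 and 1283 against 1276 and 1122, and the ranges of the genotypes overlapped. The log2 ratio of ndx1-4 to Col-0 in the fit, its log2 fold change, was 0.02 ± 0.12 (SE), with an adjusted p of 0.951 in edgeR, and its sign turned under other scalings. The counts per unit of depth in ndx1-4 were 0.999 of those in Col-0, with an exact 95% interval of 0.948 to 1.05 for counting error only.

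PRX32 had about 2 times as many scaled counts in ndx1-4 but did not pass the test. It was counted 50 and 48 times in the Col-0 libraries against 127 and 89 times in ndx1-4, or 50 and 39.9 against 113.6 and 68.0 after scaling. Both ndx1-4 libraries lay above both Col-0 libraries, and replicate 1 of ndx1-4 was the highest. The log2 fold change was 1.01 ± 0.34 (SE), with an unadjusted p of 0.0306 and an adjusted p of 0.219 in edgeR. Without replicate 1 of ndx1-4 it was 0.60, and without replicate 2 of ndx1-4 it was 1.34.

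PRX22 was counted 13 and 12 times in the Col-0 libraries against 31 and 18 times in ndx1-4, or 13.0 and 9.98 against 27.7 and 13.7 after scaling. The genotypes did not overlap, but ndx1-4 replicate 2 lay only just above the higher Col-0 library. On the log2 scale the genotypes differed by 0.84 ± 0.48 (SE), with an adjusted p of 0.385 in edgeR, and it was 0.27 without replicate 1 of ndx1-4. PRX23, the downstream copy, had 0 counts in both Col-0 libraries and in ndx1-4 replicate 1, and 2 counts in ndx1-4 replicate 2. Both genotypes were at or under the floor of 3 counts, so no fold is given.

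The pair PRX22 and PRX23 was thus counted almost wholly in its upstream copy. PRX23 took 0 of 13 and 0 of 12 counts of the pair in Col-0 and 0 of 31 in ndx1-4 replicate 1. The floor of 3 counts would be a share of 23.1%, 25.0% and 9.68% in these libraries. In ndx1-4 replicate 2, PRX22 took 90.0% of the 20 counts (Wilson 95% interval 69.9% to 97.2%). That interval covers counting error only. The next gene downstream, AT2G38400, an aminotransferase gene on the same strand, was counted 2263 and 2427 times in the Col-0 libraries against 4669 and 4469 times in ndx1-4, which is 0.83 ± 0.13 (SE) higher on the log2 scale, with an adjusted p of 0.0901 in edgeR. It was named after its values were seen. On the other side of the pair, AT2G38370 was counted 753 and 844 times against 878 and 1118 times, a log2 difference of 0.17 ± 0.09 with an adjusted p of 0.346.

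PRX37 and PRX38 had fewer counts in ndx1-4, at the limit of what the depth can show. PRX37, which in Arabidopsis has been linked to cross-linking of phenolics in vascular cell walls, was counted 6 and 12 times in the Col-0 libraries against 0 and 4 times in ndx1-4. PRX38, its divergent neighbour, was counted 4 and 11 times against 1 and 2 times. For both genes the ndx1-4 libraries lay below both Col-0 libraries after scaling. Both fell under the count minimum, so their fit comes from the 8741 genes with any count, of which 18.5% had an unadjusted p below 0.05.

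In that fit the log2 fold change of PRX37 was -2.24 ± 0.99 (SE), with an unadjusted p of 0.0696 and an adjusted p of 0.30 in edgeR. For PRX38 it was -2.35 ± 0.84, with an unadjusted p of 0.0356 and an adjusted p of 0.239 in edgeR. These sizes rest on single libraries. PRX37 came to -1.38 without ndx1-4 replicate 1 and to -6.19 without ndx1-4 replicate 2, where the genotype has no count left and the value depends on the fit's prior count. PRX38 came to -1.61 without Col-0 replicate 2. As a ratio of counts per unit of depth, ndx1-4 stood at 0.202 of Col-0 for PRX37 (exact 95% interval 0.0496 to 0.612) and at 0.181 for PRX38 (0.0337 to 0.641), for counting error only. Summed, the pair was counted 10 and 23 times in the Col-0 libraries against 1 and 6 times in ndx1-4. On the log2 scale that sum differed by -2.33 ± 0.74 (SE), with an unadjusted p of 0.0254 and an adjusted p of 0.209 in edgeR. Summing sets aside how reads were split inside the pair, not the reads that PRX38 shares with AT4G08790.

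Unlike PRX22 and PRX23, both copies of this pair were counted in Col-0. PRX37 took 60% of 10 counts in Col-0 replicate 1 (Wilson 95% interval 31.3% to 83.2%), 52.2% of 23 counts in replicate 2 (33.0% to 70.8%) and 66.7% of 6 counts in ndx1-4 replicate 2 (30.0% to 90.3%). These intervals cover counting error only, not how shared reads were divided, including those that PRX38 shares with AT4G08790. They overlap, so a difference in the split was not detectable at this depth. Replicate 1 of ndx1-4 had a single count for the pair, in PRX38.

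**Figure D4:**
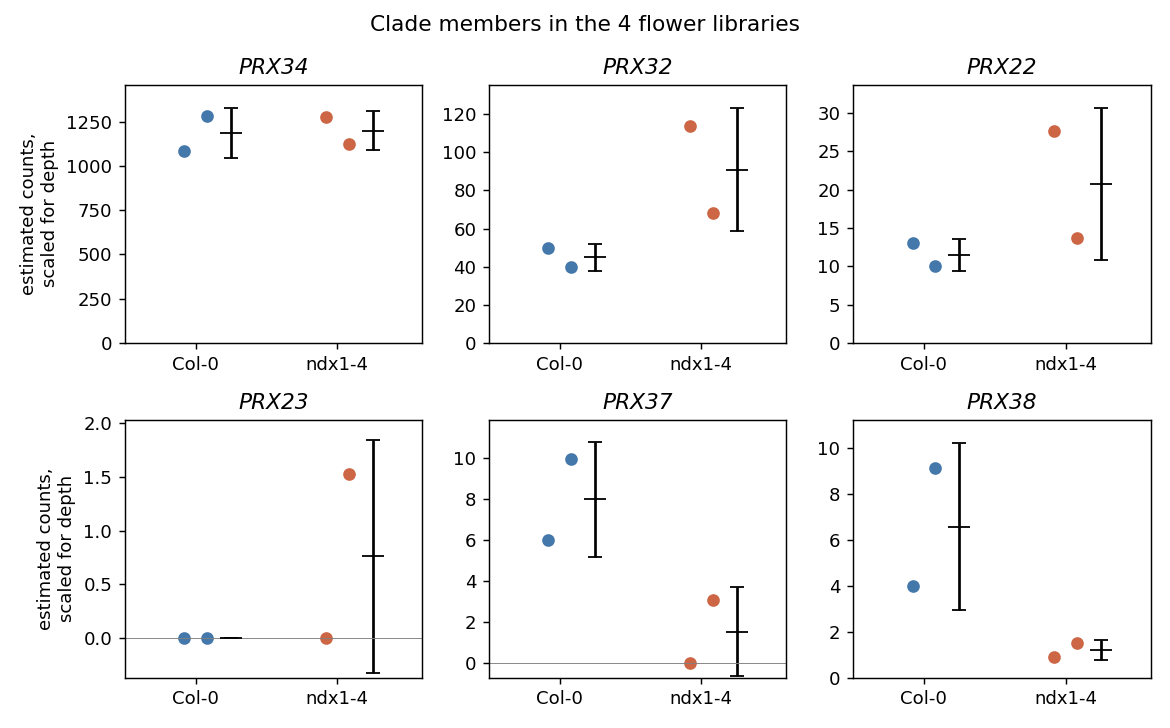
Estimated counts scaled for depth (y axis, a separate scale per gene) in the 2 libraries of each genotype (x axis). Points are libraries, and the dash with its bar is the mean ± SD (n = 2). PRX34 overlaps between genotypes, PRX32 and PRX22 are higher in both ndx1-4 libraries, PRX37 and PRX38 are lower in both, and PRX23 is at 0 in 3 libraries.

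Across the 6 listed members, 4 had scaled counts that did not overlap between the genotypes, 2 higher (PRX22 and PRX32) and 2 lower (PRX37 and PRX38) in ndx1-4. Among the 8741 genes with any count, 51.9% did not overlap either, so this count is near the background.

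Markers of other cell types also differed between the libraries. The 7 pollen markers of both tables had a summed scaled count of 13408 to 13786 in Col-0 and 14748 to 21803 in ndx1-4, highest in ndx1-4 replicate 1 as for PRX32 and PRX22. Most of that sum came from VGD1 and PPME1. None of the 7 was at 0, and 6 of the 7 had a positive fold change. The 7 listed tapetum markers, for the layer that feeds developing pollen, summed to 4345 to 4625 in Col-0 and 5511 to 6324 in ndx1-4, with none at 0 and all 7 fold changes positive. Of 8 genes of stem secondary walls, 2 were in both tables, the xylem proteases XCP1 and XCP2, and they summed to 407.0 to 478.1 in Col-0 and 248.1 to 351.5 in ndx1-4. The 4 leaf photosynthesis genes summed to 281560 to 291787 in Col-0 and 223637 to 279472 in ndx1-4. No gene of these lists was called by edgeR, with 1 pollen, 3 tapetum, 1 stem wall and 2 leaf genes at an unadjusted p below 0.05, beside 19.3% of all tested genes. DESeq2, which called 2.49% of all genes, called 1 of them in the tapetum list, MS2, and 2 in the leaf list, LHCB2.1 and RBCS3B. MS2, LHCB2.1 and RBCS3B were also in the authors' table comparing the genotypes. The part of these cell types in the values of PRX22, PRX32, PRX37 and PRX38 was not tested.

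Of 66 other class III peroxidases, 48 were in both tissue tables and 28 passed the count minimum. None was called by edgeR at an adjusted p below 0.01, the smallest adjusted p being 0.120, and 0 were called by DESeq2. These calls stood at 0.0877% and 2.49% of all tested genes, and DESeq2 gave no adjusted p for 4 of the 28. A block for the replicate number in edgeR added 1 call among the 28, PRX65, where it called 281 of all 7981 tested genes. PRX71 (AT5G64120) was not among the 28, because it was listed in the tissue table of Col-0 alone, but it was the one gene of the family in the authors' table comparing the genotypes. That table held 414 genes of the whole transcriptome, so this entry alone says nothing about the family as a whole. PRX71 was counted 396 and 864 times in the Col-0 libraries against 101 and 244 times in ndx1-4. Once the genes of that table were added to the fit, its log2 difference was -2.0 ± 0.44 (SE), with an adjusted p of 0.0946 in edgeR. Over the 28, the median log2 fold change was -0.19, with 10 positive and 18 negative, beside 0.01 over all 7981 genes. At an unadjusted p below 0.05 stood 2 with higher values in ndx1-4 and 4 with lower ones, a share near the 19.3% of all tested genes.

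PRX42, the most abundant family member, had an FPKM of 311.9 ± 14.9 (SD, n = 2) in Col-0 and 310.5 ± 32.8 in ndx1-4, and its log2 fold change was -0.01 ± 0.11 (SE). PRX65, the next of those listed in both tables, stood at 48.6 ± 15.1 and 74.4 ± 24.4, with a log2 fold change of 0.62 ± 0.30 and an adjusted p of 0.325 in edgeR, which became 0.00684 with the replicate block. PRX39 was counted 106 and 109 times in the Col-0 libraries against 254 and 218 times in ndx1-4, and its log2 fold change of 1.0 ± 0.23 was close to that of PRX32. PRX70 was at the other end, counted 25 and 36 times against 3 and 9 times, and its log2 fold change of -2.47 ± 0.49 was close to those of PRX37 and PRX38. The adjusted p was 0.137 for PRX39 and 0.123 for PRX70, and these 2 genes, like PRX71, were named after their values were seen.

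**Figure D5:**
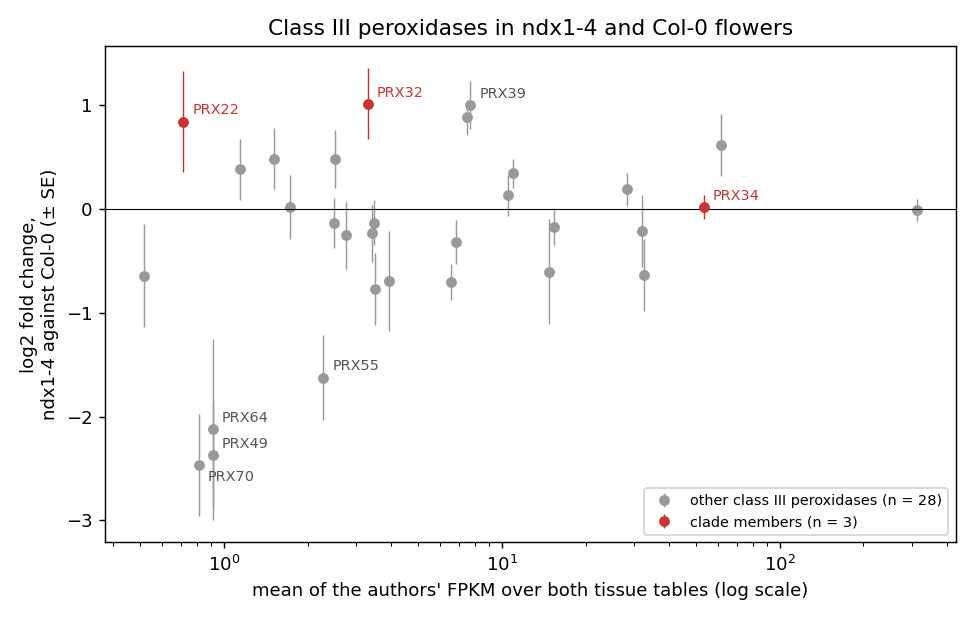
Log2 fold change of ndx1-4 against Col-0 with its SE (y axis) by the mean FPKM over both tissue tables (x axis, log scale), for the 3 members (red) and 28 other class III peroxidases (grey) that passed the count minimum. PRX34 lies at 0.02, PRX32 at 1.01 beside PRX39 at 1.0, and the lowest point is PRX70 at -2.47.

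Genes that supply or use the same chemistry gave 0 calls in edgeR at an adjusted p below 0.01, 0 at an unadjusted p below 0.05 and 0 in DESeq2. Over all tested genes these shares were 0.0877%, 19.3% and 2.49%, so lists this short can show little by their calls. DESeq2 gave no adjusted p for 1 NADPH oxidase gene. NADPH oxidases make the superoxide from which the hydrogen peroxide for these enzymes derives. Of 10 genes, 8 were in both tables and 5 passed the count minimum, with a median log2 fold change of 0.03. RBOHF, which acts broadly in signalling, was counted 175 and 258 times in the Col-0 libraries against 207 and 220 times in ndx1-4. RBOHH, which acts in pollen tubes, was counted 97 and 34 times against 217 and 87 times, and its log2 difference of 1.06 ± 0.75 (SE) came with an adjusted p of 0.467 in edgeR.

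The monolignol pathway makes the phenolic alcohols that peroxidases and laccases couple into lignin. Of its 17 genes, 14 were in both tables and all 14 were tested, with a median log2 fold change of -0.09, 4 positive and 10 negative. The hydroxylase gene C4H had an FPKM of 60.5 ± 1.05 (SD, n = 2) in Col-0 and 60.1 ± 0.409 in ndx1-4. The methyltransferase gene CCOAOMT1 had 94.7 ± 16.8 and 77 ± 1.68. Among the lignin laccases only LAC11 was in both tables, counted 21 and 49 times against 17 and 25 times, and its log2 difference of -0.85 ± 0.43 (SE) came with an adjusted p of 0.339 in edgeR.

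PRX34 varied little over the 4 libraries. The genes nearest to it were picked for their likeness to that profile, so their own flatness follows from the choice. Among 7057 genes averaging 50 counts or more, the nearest by root mean square distance of centred log2 scaled counts were AT2G35490 at 0.011, AT1G08610 at 0.014 and ELF4 (AT2G40080), a clock gene, at 0.015. In all, 666 of the 7057 genes lay within 0.1 of PRX34, and the median distance was 0.177.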

How the data were processed

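Flower mRNA of 2 Col-0 and 2 ndx1-4 libraries was analysed. The authors mapped reads of 75 bases with Salmon (GC bias correction) to Araport11 transcripts of TAIR10, rounded the estimated counts and deposited them with FPKM values. Each deposited table lists only genes past the authors' threshold, so tested genes are a selected part of the transcriptome. Counts were identical between tables and were joined. FPKM had been scaled within each table. Columns of fold changes, adjusted p-values and direction calls hold the authors' own comparisons and were not used, nor were 8 columns of seedling libraries.

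Counts were scaled by the median ratio of count to FPKM over 314 genes of the genotype table with at least 50 counts, and genes averaging 10 counts or more were fitted in edgeR 4.0.16 (R 4.3.3), with DESeq2 1.42.0 as an alternative. The SE of a log2 fold change in edgeR was worked back from the test, as its absolute value divided by the square root of the F statistic. Sequences and gene models came from RefSeq (TAIR10.1). The members and all lists were chosen with earlier results of these data known. Named genes were the members, NDX, the called genes and 2 highest genes by FPKM of each list, and the 3 genes nearest to the member with the highest FPKM. AT2G38400, AT2G38370, PRX39, PRX70, PRX71 and the marker genes called by DESeq2 were named outside this rule, after their values were seen. Marker lists were described by their sums.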

Additional observations from a re-analysis of the deposited data

How the results depend on the processing

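No member was called under any alternative. PRX32 kept a positive log2 fold change in all 13 alternatives (0.60 to 1.34 without one library) and PRX22 in all 12 (0.27 to 1.27), and the lowest adjusted p of any member was 0.0548, for PRX32 with the replicate block. For PRX34 the sign turned with TMM scaling (-0.00423), the total of listed counts (-0.0323) and on leaving out a library (-0.10 to 0.14). PRX37 ranged from -6.19 to -1.38 and PRX38 from -2.79 to -1.61 without one library, in fits with no count minimum that were added after seeing the data. The number of genes called was 7, and it became 199 by DESeq2, 281 with the replicate block, 22 with the genotype table's genes added, 30 at an adjusted p below 0.05, and 0 without any one library. With the block, 1 other class III peroxidase was called, PRX65 (adjusted p 0.00684). Replicate numbers pair the samples by number only: differences between replicates correlated at 0.455 over 7057 genes, from 2 pairs. PRX23, PRX37 and PRX38, with at most 12 counts in a library, are limited by depth.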
